A study of Mesocricetus auratus with 24 samples.

Results

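Krüppel-like factors (KLFs) are transcription factors that share 3 zinc fingers at the carboxyl end, and the signal of 10 of their genes was followed here in the inferior colliculus (IC) of hamsters. The genes were Klf2, Klf3, Klf4, Klf5, Klf6, Klf7, Klf10, Klf12, Klf13 and Klf15, which make up 10 of the 19938 genes tested. The set was selected on measured values, because Klf7 was higher after sound in GASH/Sal hamsters on these same arrays. Klf9 was left out of the set and is used only for comparison. Each of the 10 genes had 1 probe set that carried its symbol alone. No filter on low values was applied in the main fit, so all 10 entered it.

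The GASH/Sal hamster is an inbred line with inherited audiogenic seizures, and the IC is the auditory midbrain nucleus in which such seizures begin. The 4 groups were stimulated GASH/Sal hamsters, naïve GASH/Sal hamsters, stimulated control Syrian hamsters and naïve control Syrian hamsters, with 6 arrays in each, all from animals aged 16 weeks. Stimulated animals of both strains heard the same seizure-triggering sound and their IC was taken 60 min after it, while the labels give no exposure for the naïve animals of either strain, a name taken from the study. In the study's account of its own animals, stimulated GASH/Sal hamsters had seizures and stimulated Syrian hamsters had none. A response to sound in GASH/Sal hamsters may therefore include the seizure, and this design cannot tell sound and seizure apart. The same holds for the strain difference after sound and for the difference between responses. The labels name no engineered allele in either strain. Hamster RNA was hybridised to mouse probes, so a probe set's signal also depends on how well the hamster transcript matches them, and a strain difference could include a sequence difference between the strains, which was not tested.

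KLFs bind GC-rich and CACCC elements in promoters and either activate or repress, depending on the cofactors that their amino-terminal parts recruit. Some members are immediate-early genes that growth factors, neuronal activity or shear stress induce within minutes to hours. In neurons the family is best known from axon growth, which Klf6 and Klf7 promote and which Klf4 and Klf9 restrain, while in blood vessels Klf2 and Klf4 keep the endothelium quiescent. Klf9, Klf13 and Klf15 respond to glucocorticoids or the circadian clock in several tissues.

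Values are log2 probe set signals, and differences between groups are log2 differences from one limma fit of all 24 arrays. The fit held the 4 groups and the label series, which is the naming style of the labels (series A covers replicates 1 to 3 of each group and series B replicates 4 to 6). What the styles mean is not stated in the sources used here. The whole table set the limits of these comparisons. At an adjusted p under 0.05 (limma, Benjamini-Hochberg) 0% of the 19938 genes were called in each of the 4 pairwise comparisons and in the strain-by-sound difference. Arrays stimulated Syrian 4 and naïve GASH/Sal 6 stood apart, with mean correlations of 0.969 and 0.969 with the other arrays of their groups, against 0.982 for the next lowest array. Some of the values that changed without them, not all, are given both ways. Fos, the immediate-early gene used as a check of the stimulus, averaged 6.69 (stimulated) and 6.01 (naïve) in GASH/Sal hamsters, and 6.51 (stimulated) and 6.03 (naïve) in Syrian hamsters. Actb, a structural gene used as a steady comparison, averaged 8.99 and 9.10 in stimulated and naïve GASH/Sal hamsters, and 8.96 and 8.98 in stimulated and naïve Syrian hamsters. In bulk tissue, fewer cells of a type and less RNA per cell cannot be told apart.

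Klf7, Klf15, Klf5, Klf6 and Klf13 lay among the brighter probe sets, at the 91.2, 89.1, 86.7, 85.6 and 84.0 percentiles of mean signal over all genes. Klf12, Klf2, Klf4 and Klf3 lay at the 73.8, 73.6, 64.6 and 60.7 percentiles, and Klf10 at the 36.9 percentile. These percentiles place probe sets, not transcript amounts, because signals of different probe sets are not on one scale.

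**Figure D1:**
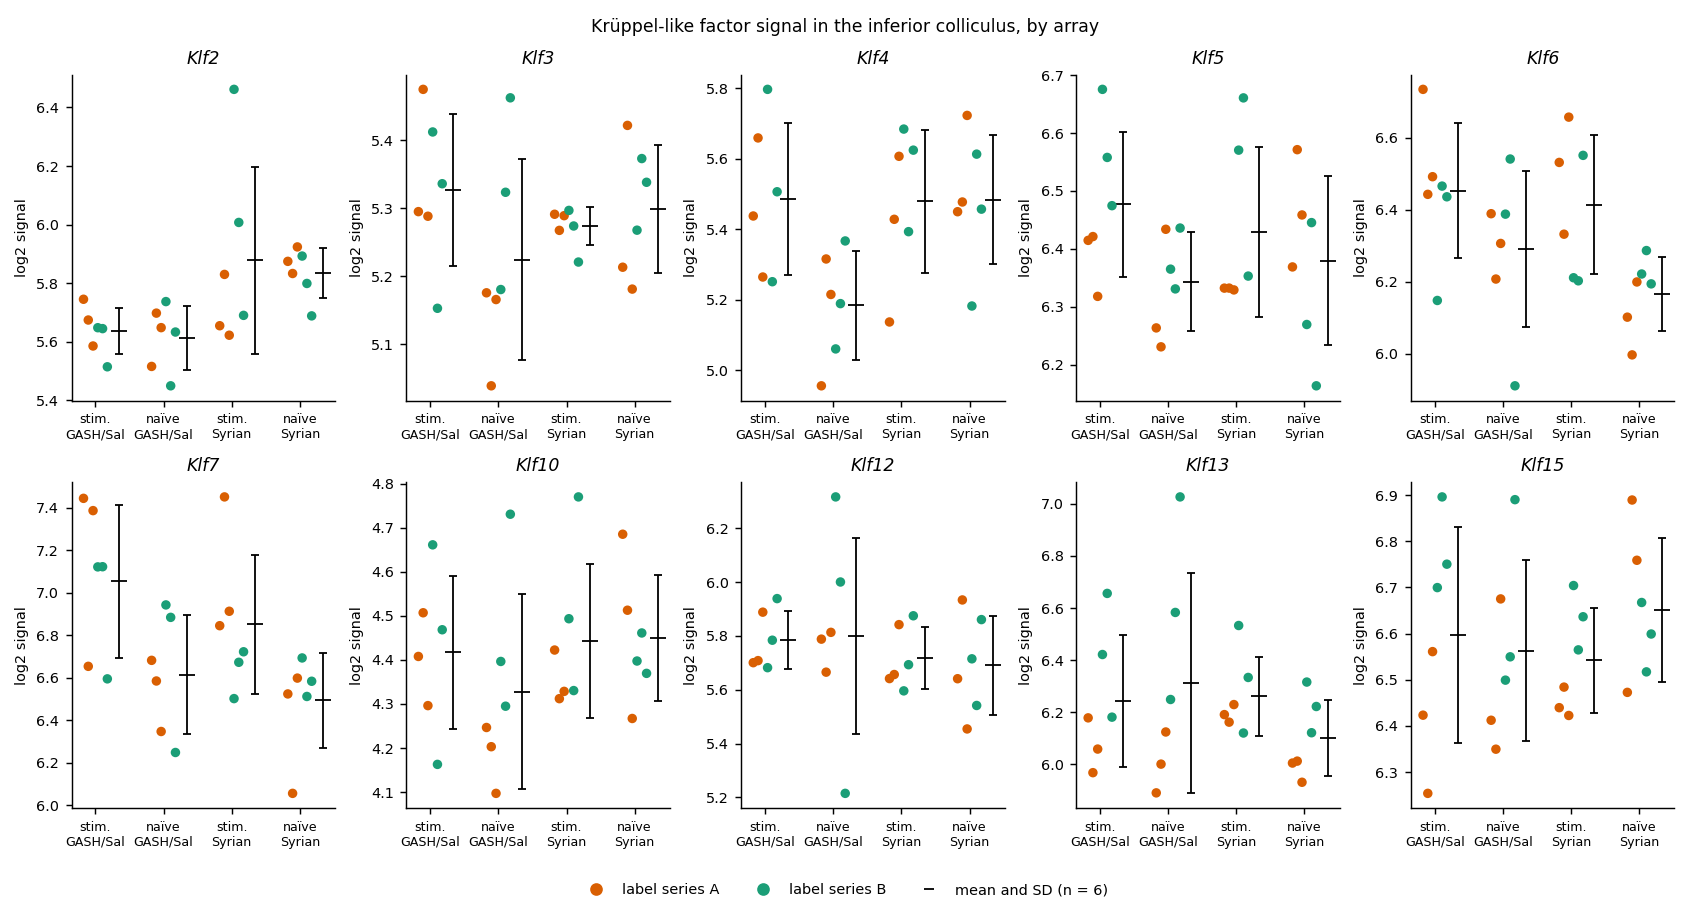
Log2 signal of the 10 genes (y axis, a separate range per panel) on each array of the 4 groups (x axis), coloured by label series, with the mean and SD of 6 arrays beside the points. Klf7 and Klf6 had their highest means in stimulated GASH/Sal hamsters and their lowest in naïve Syrian hamsters, Klf4 was lowest in naïve GASH/Sal hamsters, and Klf2 was lower in both GASH/Sal groups than in the Syrian groups.

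Klf7, which is needed for the growth of axons in several neuron types and for sensory neuron survival, had the widest range of the 10. In stimulated GASH/Sal hamsters its lowest, median and highest signals were 6.59, 7.12 and 7.44, with a mean of 7.05 ± 0.359 (SD, n = 6). In naïve GASH/Sal hamsters they were 6.25, 6.63 and 6.94, with a mean of 6.61 ± 0.280 (SD, n = 6). The groups overlapped, although 4 of the 6 stimulated arrays exceeded every naïve array and the other two, replicates 2 and 6, lay inside the naïve range. The log2 difference was 0.44 (SE 0.151), a ratio of 1.36, and it is given as a description because this comparison chose the genes. It was 0.62 within label series A and 0.25 within series B, and 0.37 without the pair of arrays that stood apart.

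The Syrian arrays did not enter that choice, and there Klf7 was also higher after sound. Stimulated Syrian hamsters had a lowest, median and highest signal of 6.50, 6.78 and 7.45 (mean 6.85 ± 0.327, SD, n = 6), and naïve Syrian hamsters 6.06, 6.55 and 6.69 (mean 6.49 ± 0.224, SD, n = 6). All 6 stimulated arrays lay above the naïve mean and 4 above every naïve array. The highest value, 7.45, was that of stimulated Syrian 2, and the lowest, 6.06, that of naïve Syrian 2. The log2 difference was 0.36 (SE 0.151, 95% interval 0.048 to 0.66), with an exact two-sided permutation p of 0.0303 for this gene alone. Over all genes the adjusted p was 0.727 (limma, Benjamini-Hochberg), so the difference did not pass.

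The Syrian response of Klf7 differed between the label series, a difference that was not tested. Within series A it was 0.68, and within series B, whose 3 stimulated arrays had 6.50, 6.67 and 6.72 against 6.69, 6.51 and 6.58 in the 3 naïve arrays, it was 0.036. Without stimulated Syrian 2 the difference was 0.24, and without the pair of arrays that stood apart it was 0.43. Between strains, Klf7 was 0.20 (SE 0.151) higher in GASH/Sal than in Syrian hamsters after sound and 0.12 (SE 0.151) higher in naïve animals. The first value ran from 0.13 (without stimulated GASH/Sal 1) to 0.32 (without stimulated Syrian 2). The second ran from 0.020 (without naïve Syrian 2) to 0.19 (without naïve GASH/Sal 6). The GASH/Sal response minus the Syrian response was 0.083 (SE 0.214), a value smaller than its own error and given with no test. It had no settled direction, at -0.053 in series A, 0.22 in series B and -0.060 without the pair of arrays that stood apart. For Klf9 the sound responses were 0.47 (GASH/Sal) and 0.23 (Syrian).

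Klf6, an activity- and injury-responsive member that promotes axon growth in fish and in mammalian corticospinal neurons, followed the same order of group means. In stimulated Syrian hamsters its lowest, median and highest signals were 6.20, 6.43 and 6.66 (mean 6.41 ± 0.192, SD, n = 6), and in naïve Syrian hamsters 5.998, 6.20 and 6.29 (mean 6.17 ± 0.102, SD, n = 6). All 6 stimulated arrays lay above the naïve mean and 4 above every naïve array, and the groups overlapped at the low end. The log2 difference was 0.25 (SE 0.0986, 95% interval 0.046 to 0.45), with an exact two-sided permutation p of 0.0216. The adjusted p over all genes was 0.719 (limma), so Klf6 did not pass either. As with Klf7, the difference was larger within series A, at 0.41, than within series B, at 0.087; the difference between the series was not tested.

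In GASH/Sal hamsters Klf6 had a lowest, median and highest signal of 6.15, 6.45 and 6.73 after sound, against 5.91, 6.35 and 6.54 in naïve animals. The means were 6.45 ± 0.187 and 6.29 ± 0.216 in stimulated and naïve GASH/Sal hamsters (SD, n = 6 each), a difference of 0.16 (SE 0.0986), described without a test. Without naïve GASH/Sal 6, the lowest array of its group at 5.91, it was 0.090. The strain differences of Klf6 were 0.039 after sound and 0.12 in naïve animals, with adjusted p of 0.980 and 0.898 (limma), and the naïve difference was 0.064 without naïve GASH/Sal 5 and 0.20 without naïve GASH/Sal 6.

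Klf7 and Klf6 were the 2 of 10 genes with an unadjusted p under 0.05 for the response to sound in Syrian hamsters, where 6.64% of all genes were below that value. Over the 10 genes the median log2 difference was 0.034, beside 0.019 over all genes. Of the 10, 6 lay above 0, beside 11468 of all 19938 genes. In GASH/Sal hamsters 8 of the 10 lay above 0, beside 11130 of all 19938 genes, with a median of 0.096 beside 0.013 over all genes. Klf7 and Klf4 had an unadjusted p under 0.05 there, beside 4.46% of all genes. This comparison chose the genes and Klf7 is among the 10, so nothing is read from these counts or from the median.

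**Figure D2:**
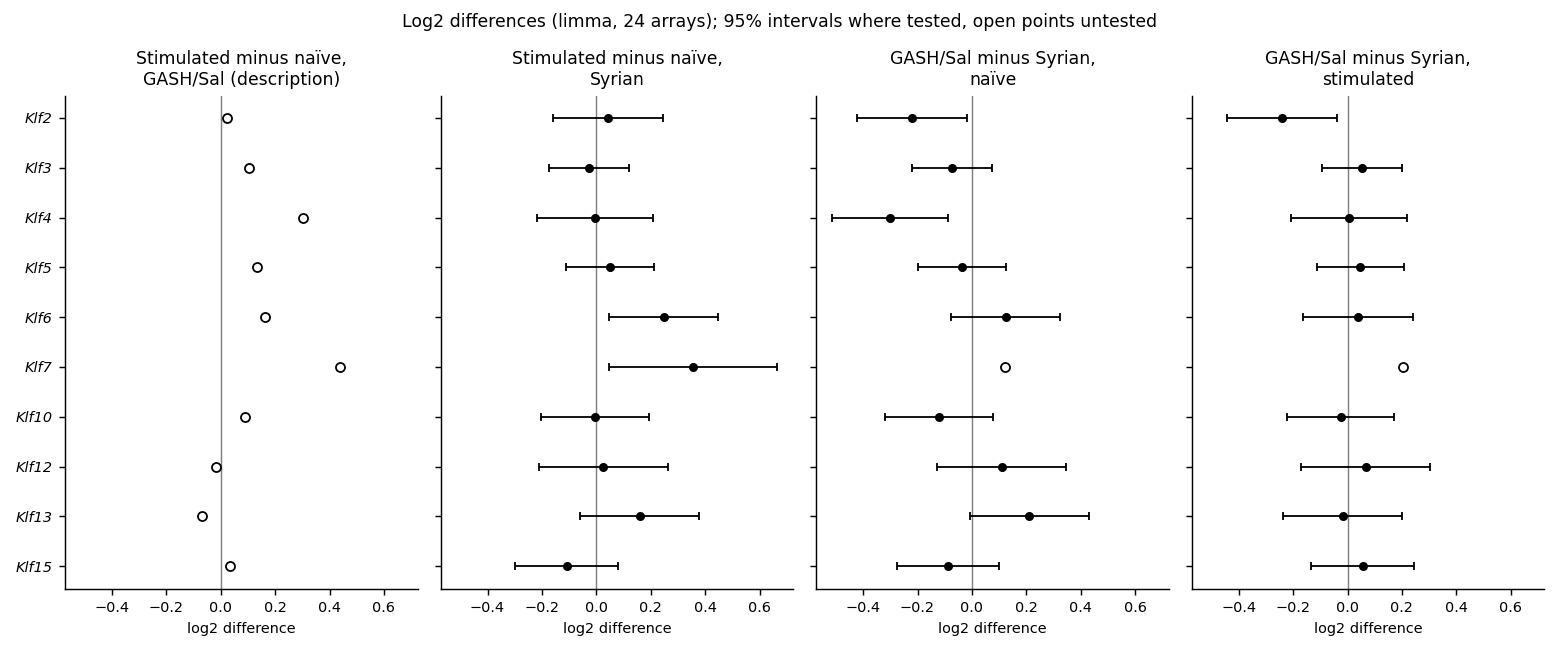
Log2 difference (x axis) of each gene (y axis) in the 4 pairwise comparisons, with filled points for tested limma estimates, bars for their 95% intervals and open points for values that are described without a test. Intervals that exclude 0 belong to Klf7 and Klf6 for sound in Syrian, Klf4 and Klf2 between naïve strains, and Klf2 between stimulated strains, and none of these passed after adjustment.

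Klf4 and Klf2 had the lowest unadjusted p between naïve strains among the genes tested there. Klf4, a pluripotency factor that in retinal ganglion cells restrains axon growth and in endothelium and microglia governs inflammatory genes, had its lowest group mean in naïve GASH/Sal hamsters. Its lowest, median and highest signals were 4.96, 5.20 and 5.37 in naïve GASH/Sal hamsters (mean 5.18 ± 0.154, SD, n = 6) and 5.18, 5.47 and 5.72 in naïve Syrian hamsters (mean 5.48 ± 0.183, SD, n = 6). All 6 GASH/Sal arrays lay below the Syrian mean and 2 lay below every Syrian array. The log2 difference was -0.30 (SE 0.104, 95% interval -0.51 to -0.087), 0.812 as a ratio, with an exact two-sided permutation p of 0.0173. It was -0.39 within series A and -0.21 within series B. The adjusted p over all genes was 0.764 (limma), so the difference did not pass.

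After sound the strains had nearly the same Klf4 signal. Stimulated GASH/Sal hamsters had 5.25, 5.47 and 5.80 as the lowest, median and highest values (mean 5.49 ± 0.216, SD, n = 6), and stimulated Syrian hamsters 5.14, 5.52 and 5.68 (mean 5.48 ± 0.203, SD, n = 6). The difference was 0.007 (95% interval -0.21 to 0.22, adjusted p = 0.999, limma). In GASH/Sal hamsters the stimulated arrays lay above the naïve mean in 6 of 6 cases, by 0.30 on average (SE 0.104), with 0.29 in series A and 0.31 in series B. In Syrian hamsters the response was -0.005 (SE 0.104, adjusted p = 0.995, limma). The GASH/Sal response minus the Syrian response was 0.31 (SE 0.147), 0.45 in series A, 0.16 in series B and 0.38 without the pair of arrays that stood apart. It has no test because it contains the comparison that chose the genes. The naïve GASH/Sal arrays enter the strain difference and the response alike, so these values are not independent of each other.

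Klf2, the flow-induced factor of endothelial cells and of quiescent T cells, averaged lower in GASH/Sal than in Syrian hamsters in both sound conditions. The naïve GASH/Sal arrays had 5.45, 5.64 and 5.74 as their lowest, median and highest signals (mean 5.61 ± 0.110, SD, n = 6), and the naïve Syrian arrays 5.69, 5.85 and 5.92 (mean 5.84 ± 0.0843, SD, n = 6). Only a narrow overlap was left, because 4 of the 6 GASH/Sal arrays lay below every Syrian array and all 6 below the Syrian mean. The log2 difference was -0.22 (SE 0.0992, 95% interval -0.42 to -0.019), 0.858 as a ratio, with an exact two-sided permutation p of 0.00649 and an adjusted p over all genes of 0.785 (limma). It was -0.26 within series A and -0.19 within series B.

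After sound, Klf2 had lowest, median and highest signals of 5.51, 5.65 and 5.75 in stimulated GASH/Sal hamsters (mean 5.64 ± 0.0786, SD, n = 6), and of 5.62, 5.76 and 6.46 in stimulated Syrian hamsters (mean 5.88 ± 0.319, SD, n = 6). The highest Syrian array was stimulated Syrian 4, at 6.46, one of the arrays that stood apart, and the other five lay between 5.62 and 6.01. The difference was -0.24 (SE 0.0992), with an exact two-sided permutation p of 0.0649 and an adjusted p of 0.896 (limma), and it was -0.12 without stimulated Syrian 4. Within series A it was -0.034 and within series B, which holds that array, -0.45. The sound differences of Klf2 were 0.022 (GASH/Sal) and 0.042 (Syrian), the second of which was -0.076 without stimulated Syrian 4.

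Averaged over both sound conditions, the strain difference of Klf2 was -0.23 (SE 0.0701, 95% interval -0.38 to -0.089), and -0.18 without the pair of arrays that stood apart. The adjusted p was 0.422 (limma). This average was added after the values had been seen, and 0.01% of all genes, 2 of 19938, were called in it. It was -0.15 within series A and -0.32 within series B. Klf2 was the 1 of 10 genes with an unadjusted p under 0.05 there, beside 7.99% of all genes, while Klf4 had an average of -0.15 (adjusted p = 0.618, limma).

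Klf4 and Klf2 were the 2 of 10 genes with an unadjusted p under 0.05 between naïve strains, beside 6.02% of all genes, and Klf2 was the 1 of 10 between stimulated strains, beside 5.42%. The median over the 10 genes was -0.055 between naïve strains and 0.043 between stimulated strains, beside -0.011 and -0.014 over all genes. The naïve and stimulated comparisons of one strain share their arrays with the strain comparisons, so the 4 sets of values are not independent. In none of the 4 comparisons were the arrays of both groups fully apart for any of the 10 genes, which occurred for 0.226% (sound, GASH/Sal), 0.291% (sound, Syrian), 0.271% (strain, naïve) and 0.251% (strain, stimulated) of all genes.

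**Figure D3:**
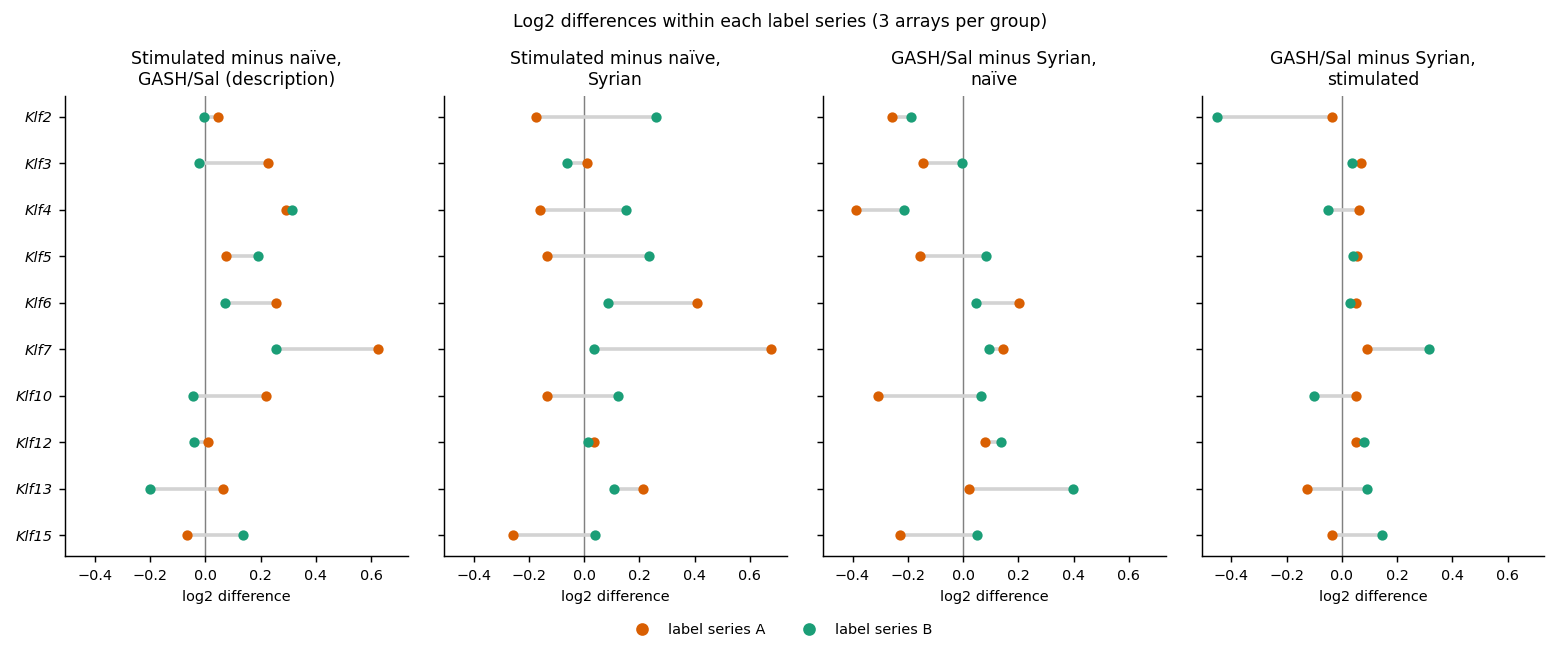
Log2 difference (x axis) of each gene (y axis) in the 4 pairwise comparisons within label series A and within label series B, each with 3 arrays per group, joined by a grey line. Klf7 and Klf6 in Syrian hamsters had larger sound responses in series A (0.68 and 0.41) than in series B (0.036 and 0.087), while Klf4 between naïve strains was below 0 in both (-0.39 and -0.21).

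The repressor-type members Klf3 and Klf12, which recruit CtBP corepressors, showed small differences. Each pairwise difference had an SE of 0.072 for Klf3 and 0.116 for Klf12. Klf3 ranged from 5.04 to 5.47 over the 24 arrays, and its group means lay between 5.22 and 5.33. Its 4 pairwise differences lay between -0.075 and 0.10, the last of them the response in GASH/Sal hamsters, 0.23 in series A and -0.022 in series B, and the first, between naïve strains, was -0.12 without naïve GASH/Sal 6. Klf12 had group means from 5.69 to 5.80, and its largest difference, 0.11 between naïve strains, had an adjusted p of 0.932 (limma). Naïve GASH/Sal hamsters held both the highest and the lowest Klf12 array of the study, replicate 4 at 6.32 and replicate 6 at 5.21. The naïve strain difference was 0.0042 without replicate 4 and 0.24 without replicate 6, and the GASH/Sal sound difference, -0.016 with all arrays, was -0.14 without replicate 6.

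Klf5, an activator in proliferating epithelium and smooth muscle, averaged 6.48 ± 0.125 and 6.34 ± 0.0854 in stimulated and naïve GASH/Sal hamsters, and 6.43 ± 0.147 and 6.38 ± 0.146 in stimulated and naïve Syrian hamsters (SD, n = 6 each). The GASH/Sal difference of 0.13 (SE 0.0790) is a description, and the Syrian difference of 0.050 had an adjusted p of 0.924 (limma). Klf10, first found as a TGF-beta-inducible early gene, was the dimmest of the set, with group means between 4.33 and 4.45. Its 4 pairwise differences lay between -0.12 and 0.089, none with an adjusted p below 0.898 among those tested. Without naïve GASH/Sal 6 its sound difference in GASH/Sal hamsters was 0.16, against 0.089 with all arrays, and its naïve strain difference -0.19, against -0.12 with all arrays; the second was -0.060 without naïve Syrian 1.

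Klf13 and Klf15 respond to glucocorticoids in several tissues. Klf13 averaged 6.24 ± 0.253 and 6.31 ± 0.424 in stimulated and naïve GASH/Sal hamsters, and 6.26 ± 0.151 and 6.10 ± 0.146 in stimulated and naïve Syrian hamsters (SD, n = 6 each). In Syrian hamsters all 6 stimulated arrays lay above the naïve mean, a difference of 0.16 (SE 0.107) with an exact two-sided permutation p of 0.0909 and an adjusted p of 0.811 (limma). Between naïve strains the difference of 0.21 rested largely on naïve GASH/Sal 6, the highest Klf13 array at 7.03, since it was 0.096 without that array (adjusted p = 0.813 with all arrays, limma). Klf15, an inducer of amino acid breakdown in muscle and liver, had group means between 6.54 and 6.65 and sound differences of 0.035 (GASH/Sal) and -0.11 (Syrian), the second with an adjusted p of 0.851 (limma) and a value of -0.043 without naïve Syrian 2. The GASH/Sal value ran from -0.012 to 0.091 when single arrays were left out. Between naïve strains Klf15 differed by -0.088, and by -0.14 without naïve GASH/Sal 6.

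The genes most like Klf7 were found by Pearson correlation over the 24 arrays, which share strain, sound and label series, so r describes these arrays and has no test. They were Rgs2, a regulator of G-protein signalling induced by synaptic activity, with r = 0.883, the neuronal immediate-early factor Npas4 (r = 0.867), glia maturation factor beta, Gmfb (r = 0.835), the zinc-finger factor Egr2 (r = 0.830) and the synaptic scaffold gene Homer1 (r = 0.816). Spearman's rho for these genes was 0.827, 0.750, 0.763, 0.595 and 0.706 in the same order. Without the 2 arrays farthest from the median of Klf7, stimulated Syrian 2 and stimulated GASH/Sal 1, r was 0.829, 0.795, 0.777, 0.737 and 0.746 in that order.

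The likeness to Rgs2 was also present within groups. After the mean of each group within each label series was taken out, r was 0.881 for Rgs2, 0.835 for Npas4, 0.719 for Gmfb, 0.801 for Egr2 and 0.735 for Homer1. Rgs2 had r = 0.900 with Klf7 over the 12 GASH/Sal arrays and 0.928 over the 12 Syrian arrays. The individual hamsters that were high in Klf7 after sound, stimulated GASH/Sal 1 and 3 and stimulated Syrian 2, were also the 3 highest in Rgs2 and Npas4. Fos had r = 0.783 with Klf7, rank 9 of all genes.

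**Figure D4:**
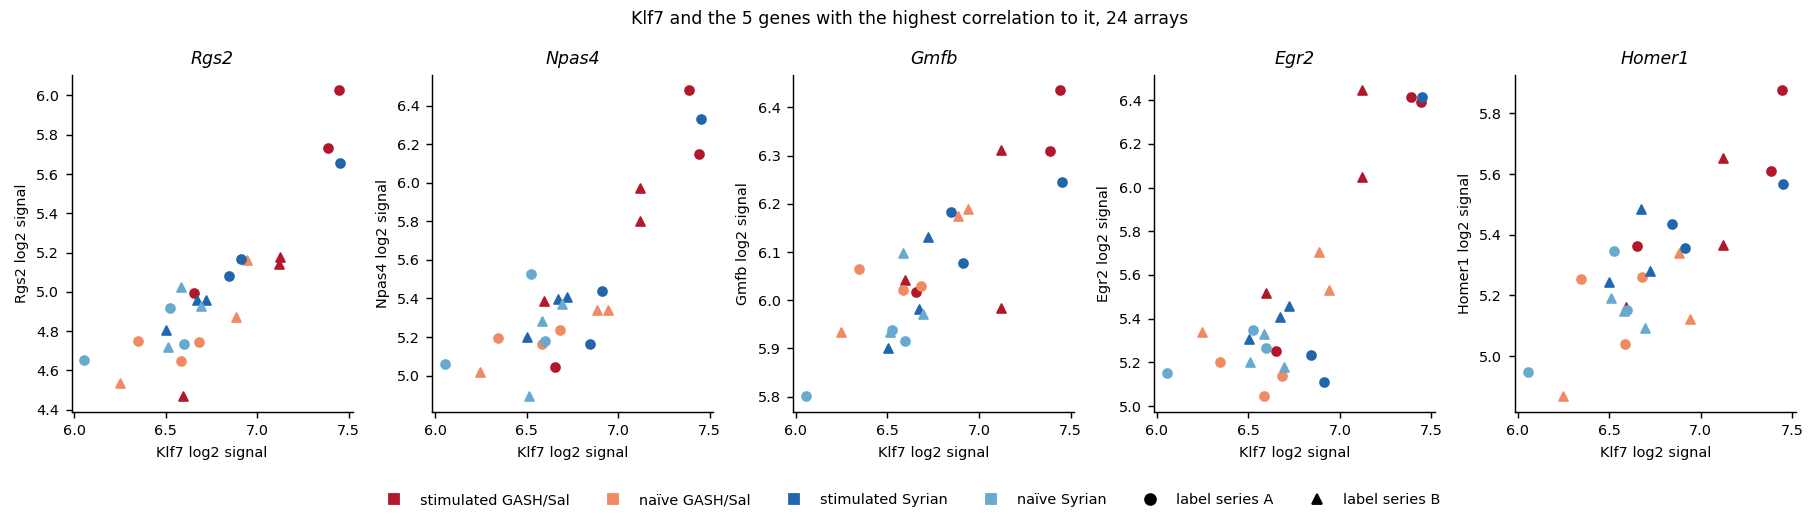
Log2 signal of the 5 genes with the highest correlation to Klf7 (y axis, one panel each) against the log2 signal of Klf7 (x axis) on 24 arrays, coloured by group, with circles for label series A and triangles for series B. The 3 arrays farthest to the right, stimulated GASH/Sal 1 and 3 and stimulated Syrian 2, were also the highest for Rgs2 and Npas4, and r was 0.883 for Rgs2 and 0.816 for Homer1.

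Among the 10 genes themselves, Klf6 was the one most like Klf7, with r = 0.638 over the 24 arrays (rho = 0.639, and r = 0.627 without the 2 arrays named above) and rank 182 of all genes, while Klf9 had r = 0.628 and rank 206. The 8 remaining genes had r between -0.33 and 0.21 with Klf7. Over all 45 pairs of the 10 genes r lay between -0.47, for Klf6 and Klf15, and 0.64, for Klf6 and Klf7, with a median of -0.004. Within groups and label series the most negative pairs were Klf3 with Klf7, at -0.69, and Klf12 with Klf13, at -0.61.

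Other genes of the KLF pathway were followed as lists, in which no gene passed the adjusted test in any pairwise comparison. The same held for all 19938 genes, of which 0% passed. The shares of all genes with an unadjusted p under 0.05, against which the counts below stand, were those given above (4.46% and 6.64% for sound in GASH/Sal and Syrian hamsters, 6.02% and 5.42% between naïve and stimulated strains). Of 15 measured KLF and SP relatives of 17 listed, Klf9 alone had an unadjusted p under 0.05 for sound, in both strains. Between stimulated strains Sp8, a factor of forebrain interneuron development, averaged 3.74 ± 0.184 in GASH/Sal and 4.05 ± 0.231 in Syrian hamsters (SD, n = 6 each), a difference of -0.32. Klf8, a repressor close to Klf3 and Klf12, averaged 3.75 ± 0.178 and 3.57 ± 0.162 in the same groups (SD, n = 6 each), a difference of 0.18. Both probe sets were dim, with these means below the lowest array median of 4.50. Of 12 cofactors and ubiquitin ligases of KLFs, the acetyltransferase gene Ep300 averaged 6.16 ± 0.245 in GASH/Sal and 5.93 ± 0.141 in Syrian hamsters without sound (SD, n = 6 each), a difference of 0.23, and no other member of that list had an unadjusted p under 0.05 in a pairwise comparison.

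Of 12 genes that induce KLFs, among them the MEK5, ERK5 and MEF2 genes upstream of Klf2 and Klf4 and the TGF-beta pathway upstream of Klf10, Tgfbr2 was the gene below that value. It averaged 5.72 ± 0.107 in stimulated and 5.93 ± 0.161 in naïve Syrian hamsters (SD, n = 6 each), a difference of -0.22, and it was 0.17 higher in GASH/Sal than in Syrian hamsters after sound. Of 4 measured KLF targets and axon growth genes of 6 listed, the adhesion molecule gene L1cam was 0.23 higher in naïve GASH/Sal than in naïve Syrian hamsters. The 6 endothelial targets of Klf2 and Klf4 (Nos3, Thbd, S1pr1, Edn1, Vcam1 and Sele) held 0 genes with an unadjusted p under 0.05, with a median of -0.13 and 6 of 6 below 0 between naïve strains, beside a median of -0.011 and 10816 of 19938 below 0 over all genes. Between stimulated strains their median was -0.040 with 4 of 6 below 0, beside -0.014 and 11166 of 19938 over all genes. The 4 metabolic targets of Klf15 held 0 such genes as well.

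Markers of the endothelium, a known site of Klf2 and Klf4, were compared in the same groups. The mean level of 7 endothelial markers (Cldn5, Pecam1, Flt1, Tek, Cdh5, Esam and Slco1a4) was 4.90 in stimulated GASH/Sal arrays (range 4.77 to 4.99) and 4.95 in stimulated Syrian arrays (range 4.84 to 5.12). It was 4.90 in naïve GASH/Sal arrays (range 4.80 to 5.12) and 4.90 in naïve Syrian arrays (range 4.84 to 5.02). Between naïve strains 0 of the 7 had an unadjusted p under 0.05 (6.02% of all genes), and between stimulated strains 1 of the 7 did (5.42% of all genes), Tek, at 0.18 higher in GASH/Sal hamsters. In the average over sound conditions (7.99% of all genes) Cldn5 was 0.16 lower and Tek 0.13 higher in GASH/Sal hamsters at that value. Between naïve strains 2 of the 7 lay below 0 (median 0.011), beside 10816 of 19938 (median -0.011) over all genes. After sound, 6 of the 7 lay below 0 between strains (median -0.088), beside 11166 of 19938 (median -0.014) over all genes. For the average it was 6 of the 7 (median -0.025), beside 11441 of 19938 (median -0.015) over all genes.

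No marker of another cell type passed the adjusted test in any pairwise strain comparison. Since 0% of all 19938 genes passed there, nothing about cell types is read from this. Between naïve strains the oligodendrocyte list had 3 of 5 measured genes below 0 and a median of -0.017, with Cnp at 0.27 as its 1 gene at an unadjusted p under 0.05. The neuron list had 4 of 6 below 0 and a median of -0.011, with Eno2 at 0.22, and the inhibitory neuron list had 1 of 4 below 0 and a median of 0.085, with Gad2 at 0.19. The cerebellar list had 3 of 5 below 0 and a median of -0.038, with Cbln3 at -0.30. For sound in GASH/Sal hamsters (4.46% of all genes), Mog at 0.22 and Mobp at 0.20 were below that p, with 4 of 5 oligodendrocyte genes above 0. Tubb3 was at -0.29, with 3 of 6 neuron genes below 0. For sound in Syrian hamsters (6.64% of all genes), Gad1 was at -0.18, with 2 of 4 inhibitory neuron genes below 0. The part of these markers in the sound responses was not tested.

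The levels of these lists overlapped between strains. The oligodendrocyte genes averaged 6.04 in naïve GASH/Sal arrays (range 5.89 to 6.23) and 5.99 in naïve Syrian arrays (range 5.85 to 6.10), and the neuron genes 8.11 (range 7.88 to 8.31) and 8.08 (range 7.95 to 8.18). The cerebellar genes averaged 4.55 in naïve GASH/Sal arrays (range 4.44 to 4.71) and 4.60 in naïve Syrian arrays (range 4.40 to 4.84). Of 6 pericyte and smooth muscle genes, Kcnj8 had an unadjusted p under 0.05 between stimulated strains (5.42% of all genes), at -0.20. It also did in the average over sound conditions (7.99% of all genes), at -0.13, with 3 of 6 genes below 0 in each. That list averaged 4.92 in stimulated GASH/Sal arrays (range 4.82 to 5.04) and 4.94 in stimulated Syrian arrays (range 4.85 to 5.16). The part of these markers in the differences of Klf2 and Klf4 was not tested.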

How the data were processed

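The authors deposited log2 signals per probe set after RMA, named with no version in the submitters' processing notes. The table held 35556 probe sets for 24 arrays, and 0 columns of per-sample values were left out. Column medians lay between 4.50 and 4.65. RMA normalises between arrays and so removes any global shift. Precision is limited by the number of arrays. Annotation of the platform gave 1 symbol for 21789 probe sets, several for 1621 and no listed symbol for 12146. The highest-mean probe set with 1 symbol was kept per gene, which left 19938 genes.

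limma 3.58.1 (R 4.3.3; lmFit and eBayes at defaults) was fitted to 4 groups plus label series on 24 arrays, with 19 residual degrees of freedom, and was tested on simulated data. P-values were two-sided and adjusted over all genes by the Benjamini-Hochberg method at 0.05, intervals are 95% intervals, and single genes had an exact permutation test over 924 splits. The labels call the arrays biological replicates, and p-values measure the spread between them. Same-numbered arrays did not deviate together in every pair (correlations from -0.16 to 0.32), so no replicate block was used.

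The 10 genes, the gene lists and the tests were chosen with earlier results of these data known. Named genes are the 10, list genes with an unadjusted p under 0.05 in the comparisons described for their list, the 5 genes most correlated with Klf7, and Fos, Klf9 and Actb as checks. The arrays at the ends of a group were picked out after their values were seen. Alternatives left out each array, used 1 label series, dropped the series term, added the replicate block, fitted the groups of a comparison alone, removed genes below the median signal, averaged probe sets, recentred or quantile normalised the arrays, used trend and robust eBayes, and used array weights. The fits without both arrays that stood apart, the mean strain difference and the correlations within strains and groups were added after seeing the data. Protein and promoter sequences were not analysed here.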

Additional observations from a re-analysis of the deposited data

Results flagged for a closer look

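Klf7 in naïve Syrian 2 had a log2 signal of 6.06, while the 5 other naïve Syrian arrays lay between 6.51 and 6.69. The gap made up 0.716 of the group's range, above Dixon's 95% critical value for 6 arrays. Of 40 groups of 6 arrays examined (10 genes in 4 groups), this was the 1 array so far from its group, and about 1 group in 20 exceeds that value by chance.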

How the results depend on the processing

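None of the alternatives that kept the adjusted threshold called any of the 10 genes (0 of 10 in each of the 5 comparisons), the replicate block included. In the main fit 0% of all 19938 genes were called in these comparisons, so the count does not set the 10 genes apart. The share of all genes called under each alternative is not given here. With the replicate block the median Syrian sound response stayed 0.034. At an unadjusted p under 0.05 (limma) the counts were 2 for sound in GASH/Sal (4.46% of all genes) and 2 for sound in Syrian (6.64%). Between naïve strains the count was 2 (6.02%), and between stimulated strains 1 (5.42%). For the difference between responses it was 1, beside 349 genes higher and 385 lower of 19938. The counts for sound in GASH/Sal and for the difference between responses come from comparisons that chose the genes or contain that comparison. Nothing is read from them.

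The medians that moved did so within a label series. The median over the 10 genes was 0.033 in series B for sound in GASH/Sal, -0.062 in A and 0.098 in B for sound in Syrian, -0.15 in A and 0.058 in B between naïve strains, and 0.20 in A and -0.030 in B for the difference between responses. Some members changed direction. For sound in Syrian, Klf2 was -0.17, Klf3 0.010 and Klf5 -0.14 in A, Klf4 0.15, Klf10 0.12 and Klf15 0.041 in B, Klf2 -0.072 and Klf3 0.00511 with array weights, and Klf2 -0.076 without both arrays that stood apart. For sound in GASH/Sal, described without a test, Klf2, Klf3, Klf10 and Klf12 were above 0 in A (0.048, 0.23, 0.22 and 0.010) and below 0 in B (-0.0042, -0.022, -0.043 and -0.042), as was Klf13 (0.063 in A, -0.20 in B), while Klf15 was -0.066 in A and 0.14 in B. In GASH/Sal hamsters the Klf13 sound difference, -0.068 with all arrays, was 0.039 with array weights and 0.048 without both arrays that stood apart. Between naïve strains Klf5, Klf10 and Klf15 were 0.085, 0.065 and 0.052 in B. Between stimulated strains Klf10 and Klf15 were 0.049 and -0.036 in A, Klf4 and Klf13 -0.049 and 0.091 in B, Klf13 4.84e-05 with recentred arrays, and Klf6 and Klf13 -0.00055 and 0.011 without both arrays.

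Leaving out 1 array at a time turned the direction of some small differences. Their ranges for sound in Syrian were -0.064 to 0.055 for Klf10, -0.019 to 0.082 for Klf12, -0.076 to 0.091 for Klf2, -0.046 to 0.0045 for Klf3, -0.072 to 0.063 for Klf4 and -0.0026 to 0.098 for Klf5. For sound in GASH/Sal they were -0.14 to 0.088 for Klf12, -0.12 to 0.047 for Klf13, -0.018 to 0.052 for Klf2 and -0.012 to 0.091 for Klf15. Between naïve strains Klf5 ranged from -0.089 to 0.011. Between stimulated strains the ranges were -0.066 to 0.039 for Klf10, -0.082 to 0.031 for Klf13, -0.061 to 0.060 for Klf4 and -0.013 to 0.096 for Klf6. Klf7 and Klf6 in Syrian hamsters kept 0.24 to 0.42 and 0.20 to 0.28, Klf4 and Klf2 between naïve strains -0.37 to -0.25 and -0.26 to -0.18. The causes were not tested. The fit of single comparisons gives no difference between responses, and the filter at the median signal removed Klf10.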
